A study of Mus musculus with 6 samples.

Results

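The Tox family was followed in chromatin accessibility data from mouse CD8+ T cells. Its members here are the genes Tox, Tox2, Tox3 and Tox4, and the measurements are the peaks of the 6 deposited lists whose summit has one of these genes as the nearest protein-coding gene body, inside it or within 100 kb. By this rule, which uses position alone, 376 of the 573921 peaks belonged to the family: 298 at Tox, 66 at Tox2, 6 at Tox3 and 6 at Tox4. Merged wherever peaks of different libraries shared at least 1 bp, they formed 95 of the 134174 regions. The libraries came from ATAC-seq, in which a transposase cuts and tags accessible DNA. The T cells were purified from spleen by depleting other cells, activated with anti-CD3 at 5 µg/mL and anti-CD28 at 1 µg/mL, and cultured for 48 h below a membrane with pores of 0.4 µm that kept them apart from tumour cells. The tumour cells were a PD-1-resistant lung adenocarcinoma, either control cells (Res-ctrl, 3 biological replicates) or cells carrying a short hairpin against Fabp7, a fatty acid binding protein (Res-shFabp7, 3 biological replicates). All 6 T cell samples had thus been activated and had shared medium with resistant tumour cells, and the hairpin was carried by the tumour cells. The sources used here give neither the mouse strain nor the number of hairpins or tumour clones.

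Tox proteins are nuclear factors that bind DNA through a single high mobility group box, a domain that bends DNA, and they recruit chromatin regulators. Tox is needed for CD4 lineage development in the thymus and for the survival of CD8+ T cells under chronic antigen. There calcium and NFAT signalling induces it, and it sustains inhibitory receptors such as PD-1. Tox2 is close to Tox in sequence and acts with it in exhausted and follicular helper T cells, Tox3 is best known from neurons and breast epithelium, and Tox4 is a broadly expressed partner of a nuclear phosphatase complex.

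The promoters are shown first because the 3 members with a promoter entry in the RefSeq table (GRCm38.p6, the assembly of mm10) share a high GC content and differ in accessibility. Each sequence is the 250 bases before an annotated start, 5′ to 3′ on the gene's strand, with capitals marking GC boxes, matches to GGGCGG or its reverse complement, overlapping matches included. Tox2 has several annotated starts, and the one shown is the start farthest upstream in that table. Tox had no entry.
Tox2 promoter, chr2:163202877-163203126, plus strand: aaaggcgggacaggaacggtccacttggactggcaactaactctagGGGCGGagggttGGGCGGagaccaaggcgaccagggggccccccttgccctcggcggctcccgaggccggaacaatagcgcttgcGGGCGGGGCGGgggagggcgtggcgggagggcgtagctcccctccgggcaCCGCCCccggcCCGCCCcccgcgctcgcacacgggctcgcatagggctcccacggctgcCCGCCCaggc
Tox3 promoter, chr8:90348253-90348502, minus strand: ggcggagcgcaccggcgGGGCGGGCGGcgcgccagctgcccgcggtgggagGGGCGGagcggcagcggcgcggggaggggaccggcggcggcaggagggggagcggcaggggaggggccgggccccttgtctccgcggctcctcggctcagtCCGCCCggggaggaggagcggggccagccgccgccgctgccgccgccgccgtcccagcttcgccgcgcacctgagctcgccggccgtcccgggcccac
Tox4 promoter, chr14:52278896-52279145, plus strand: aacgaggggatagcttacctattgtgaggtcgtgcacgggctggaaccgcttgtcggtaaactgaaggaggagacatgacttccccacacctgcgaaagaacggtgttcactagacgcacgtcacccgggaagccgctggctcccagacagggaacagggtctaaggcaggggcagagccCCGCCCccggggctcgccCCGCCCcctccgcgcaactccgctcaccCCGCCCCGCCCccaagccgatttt

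The GC box was found 7 times in the Tox2 sequence and 4 times each in those of Tox3 and Tox4. In windows of 300 bases around the starts, from 250 before to 50 after, the GC content was 77.0% for Tox2, 85.3% for Tox3 and 65.7% for Tox4, against a median of 52.7% over all 32851 windows. A peak overlapped the Tox2 and Tox4 windows in 6 of 6 libraries and the Tox3 window in 1. Of all windows with a GC content at least that of Tox2, 68.9% had a peak in all 6 libraries and 22.1% had one in 1 library or none. Only 31 windows were as GC-rich as that of Tox3, 45.2% of them with a peak in all 6 libraries and as large a share with one in 1 library or none. On both strands of the same windows, the AP-1 motif TGANTCA, the NFAT core GGAAAA, the nuclear receptor core AGGTCA, the Runx core TGTGGT and the Tcf core TCAAAG had no match at these starts of Tox2, Tox3 and Tox4. Over all windows these motifs were present in 7.81%, 23.4%, 16.3%, 16.8% and 16.0%. Among windows with a peak in all 6 libraries the shares were 4.62%, 19.4%, 10.9%, 12.3% and 11.2%. Shares among windows of like GC content were not counted. The cAMP response element core TGACGT matched once in the Tox4 window, which 7.51% of windows share, and the ETS core CCGGAA once in the Tox2 window (14.9%). Among windows with a peak in all 6 libraries, as both of these had, the shares were 12.9% and 30.7%. The GC box was in 35.7% of all windows and in 67.4% of those with a peak in all 6 libraries, and the E-box CANNTG, found in all 3 windows, in 72.3% of all.

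The lists held 100243 to 105796 peaks with Res-shFabp7 and 82153 to 96310 with Res-ctrl. The background pileup recovered from each list, a relative measure of depth, was 1.03, 0.868 and 0.959 in Res-shFabp7 replicates 1, 2 and 3 and 0.709, 0.608 and 1.01 in Res-ctrl replicates 1, 2 and 3, so that 2 of 3 control libraries were the shallowest. A peak that is missing from a shallow list is not evidence of closed chromatin. A region called in all 6 libraries was assigned to 64.3% of all 21883 protein-coding genes. All 8 markers of CD8 T cells, among them Cd8a, Cd8b1 and Cd3e, had such a region. So did all 4 CD4 and regulatory T cell markers, 3 of 5 B cell, 3 of 5 myeloid, 2 of 4 NK cell and 2 of 6 lung epithelial markers, while Ms4a1 of B cells and Krt8 and Sftpc of lung epithelium had no region in any library.

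Tox was the most open member by number of peaks. Its body spans 305 kb (chr4:6686353-6991557), and the lists assigned it 52, 56 and 54 peaks with Res-shFabp7 and 43, 48 and 45 with Res-ctrl. These merged into 76 regions, of which 29 were called in all 6 libraries and 23 in a single library. Every other protein-coding gene was farther than the 100 kb limit, as the nearest neighbours, Nsmaf and Car8, lie 232 kb and 1150 kb away. The gene table gives neither exons nor, for Tox, the strand, so exonic, intronic and UTR positions are not stated.

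**Figure D1:**
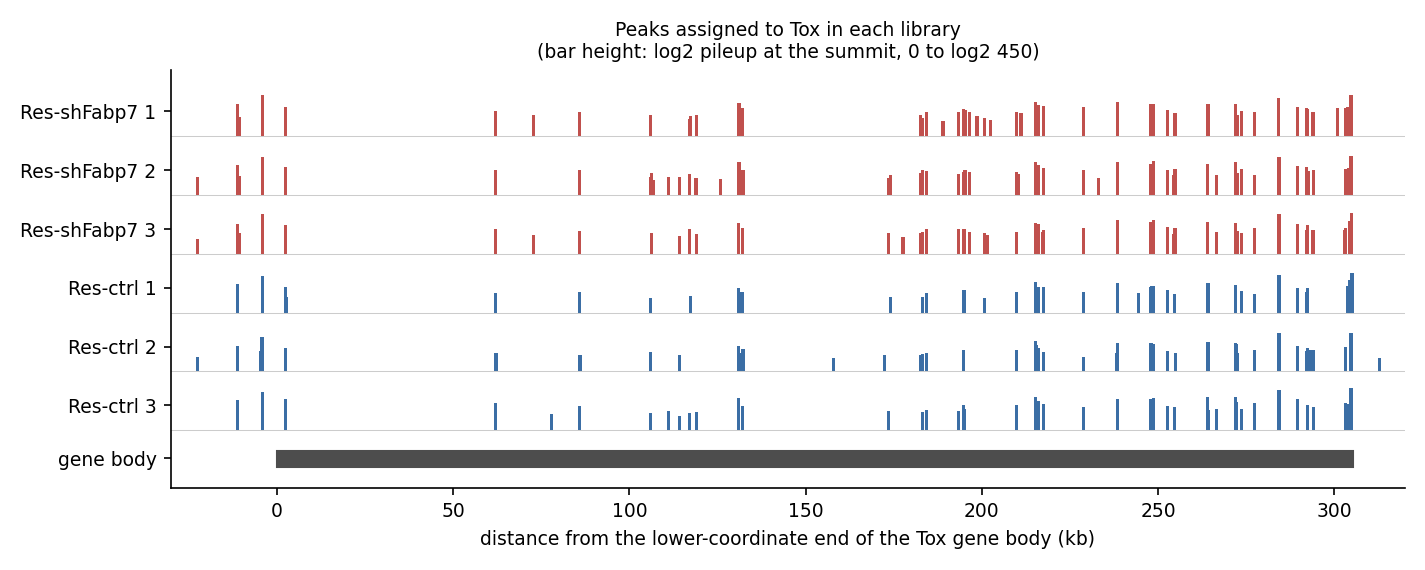
Peaks assigned to Tox in each library (rows; red, Res-shFabp7; blue, Res-ctrl) against the distance from the lower-coordinate end of the gene body in kb; the bar height is the log2 of the authors' pileup at the summit, and bars are drawn wider than the peaks so that they can be seen. Peaks crowd the higher-coordinate part of the body in all 6 rows, and a stretch of 59.2 kb near the lower end holds a single weak peak, in Res-ctrl replicate 1.

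The open regions were unevenly spread along Tox. With the body cut into 3 equal parts from the lowest to the highest coordinates, the 27 regions called in all 6 libraries inside it fell as 3, 5 and 19. The other 2 lay outside, below the lower end. The longest stretch without such a region measured 59.2 kb, from 6688962 to 6748154, and the median distance between successive ones was 6378 bp. Over the 35 regions of the family called in all 6, the highest summits of the libraries lay a median of 63 bp apart.

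The 3 Tox regions with the strongest weakest peak were at the higher-coordinate end of the gene, inside it near that end, and just beyond the lower end. The first, chr4:6990555-6991649, was the longest region of the family at 1095 bp and overlapped the higher-coordinate end of the body. Its pileup, the read coverage at the summit, was 144, 118 and 143 with Res-shFabp7 and 130, 107 and 171 with Res-ctrl, which placed it at or above 90.7% of the peaks of every list. The groups overlapped, and Res-ctrl replicate 3 was the highest of the 6. The second, chr4:6970400-6970923, lay 20.9 kb inside that end and had pileups of 104, 109 and 130 with Res-shFabp7 and 93, 107 and 131 with Res-ctrl. The third, chr4:6681935-6682421, lay outside the gene, 4175 bp below its lower end. It had pileups of 145, 107 and 135 with Res-shFabp7 and 85, 64 and 103 with Res-ctrl. Here all 3 Res-shFabp7 values were above all 3 control values on the raw scale, which is not adjusted for depth. The share of all regions with groups apart on that scale was not counted. In the comparison of height ranks given below, the difference of this region was 0.245 ± 0.0970 (SE; limma adjusted p = 0.303). Pileup, fold and −log10 q are peak values computed by the authors.

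Tox2 had fewer regions than Tox, at its promoter, inside the body and before the gene. Its body spans 121 kb (chr2:163203058-163324172), and it had 13, 12 and 11 peaks with Res-shFabp7 and 7, 11 and 12 with Res-ctrl. They merged into 15 regions, 5 of them called in all 6 libraries. The promoter region, chr2:163202866-163203829, had pileups of 57, 37 and 45 with Res-shFabp7 and 27, 23 and 30 with Res-ctrl. It was weak for a promoter: among the 9718 promoter-overlapping regions called in all 6 libraries it ranked at percentiles 8.81 to 21.5 of the 6 libraries, where the region at the higher-coordinate end of Tox ranked at 49.4 to 60.2 on the same scale.

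The strongest Tox2 peaks were not at its promoter. The region chr2:163229102-163229432, 26.2 kb inside the body, had pileups of 82, 71 and 80 with Res-shFabp7 and 50, 38 and 89 with Res-ctrl. Another at 50.5 kb inside, chr2:163253116-163253952, had 70, 62 and 75 with Res-shFabp7 against 29, 40 and 52 with Res-ctrl. An upstream region, chr2:163164335-163165086, lay 38348 bp before the gene and had 73, 79 and 64 with Res-shFabp7 against 39, 28 and 70 with Res-ctrl. Res-ctrl replicate 3 was the control library with the highest value in all 3 regions, and in the first it was above every Res-shFabp7 library. Windows at 3 other annotated Tox2 starts, with lower GC contents of 53.3% to 62.0%, held no peak in any library.

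Tox3 was nearly devoid of peaks. Its body spans 102 kb (chr8:90247110-90349029), and it had 1, 2 and 1 peaks with Res-shFabp7 and 0, 0 and 2 with Res-ctrl. The promoter printed above met a peak only in Res-shFabp7 replicate 2, at chr8:90348255-90348327, with a pileup of 5 and a −log10 q of 1.48, where the list ends at 1.31. Its most shared region, chr8:90356768-90357062, lay 7886 bp beyond the start side of the body. It was called in Res-shFabp7 replicates 1, 2 and 3 with pileups of 13, 9 and 10, and in Res-ctrl replicate 3 with 9. The libraries without it were the 2 shallowest. The third region, chr8:90378161-90378233, was called in Res-ctrl replicate 3 alone. No Tox3 region was called in all 6 libraries.

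Tox4 was represented by 1 region, among the strongest of each list. The region chr14:52279073-52279695 covers the start of the gene, whose body spans 16.4 kb (chr14:52279146-52295509). Its pileup was 367, 343 and 422 with Res-shFabp7 and 294, 271 and 378 with Res-ctrl, at percentiles of 98.9 to 99.5 of the lists. The summits lay 262 to 390 bp into the body. Rab2b, a small GTPase gene on the other side, overlaps the first 250 bp of the Tox4 body, so the region covers an end of both genes, and accessibility cannot be assigned to Tox4 alone. No second region was assigned to Tox4 in any library.

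**Figure D2:**
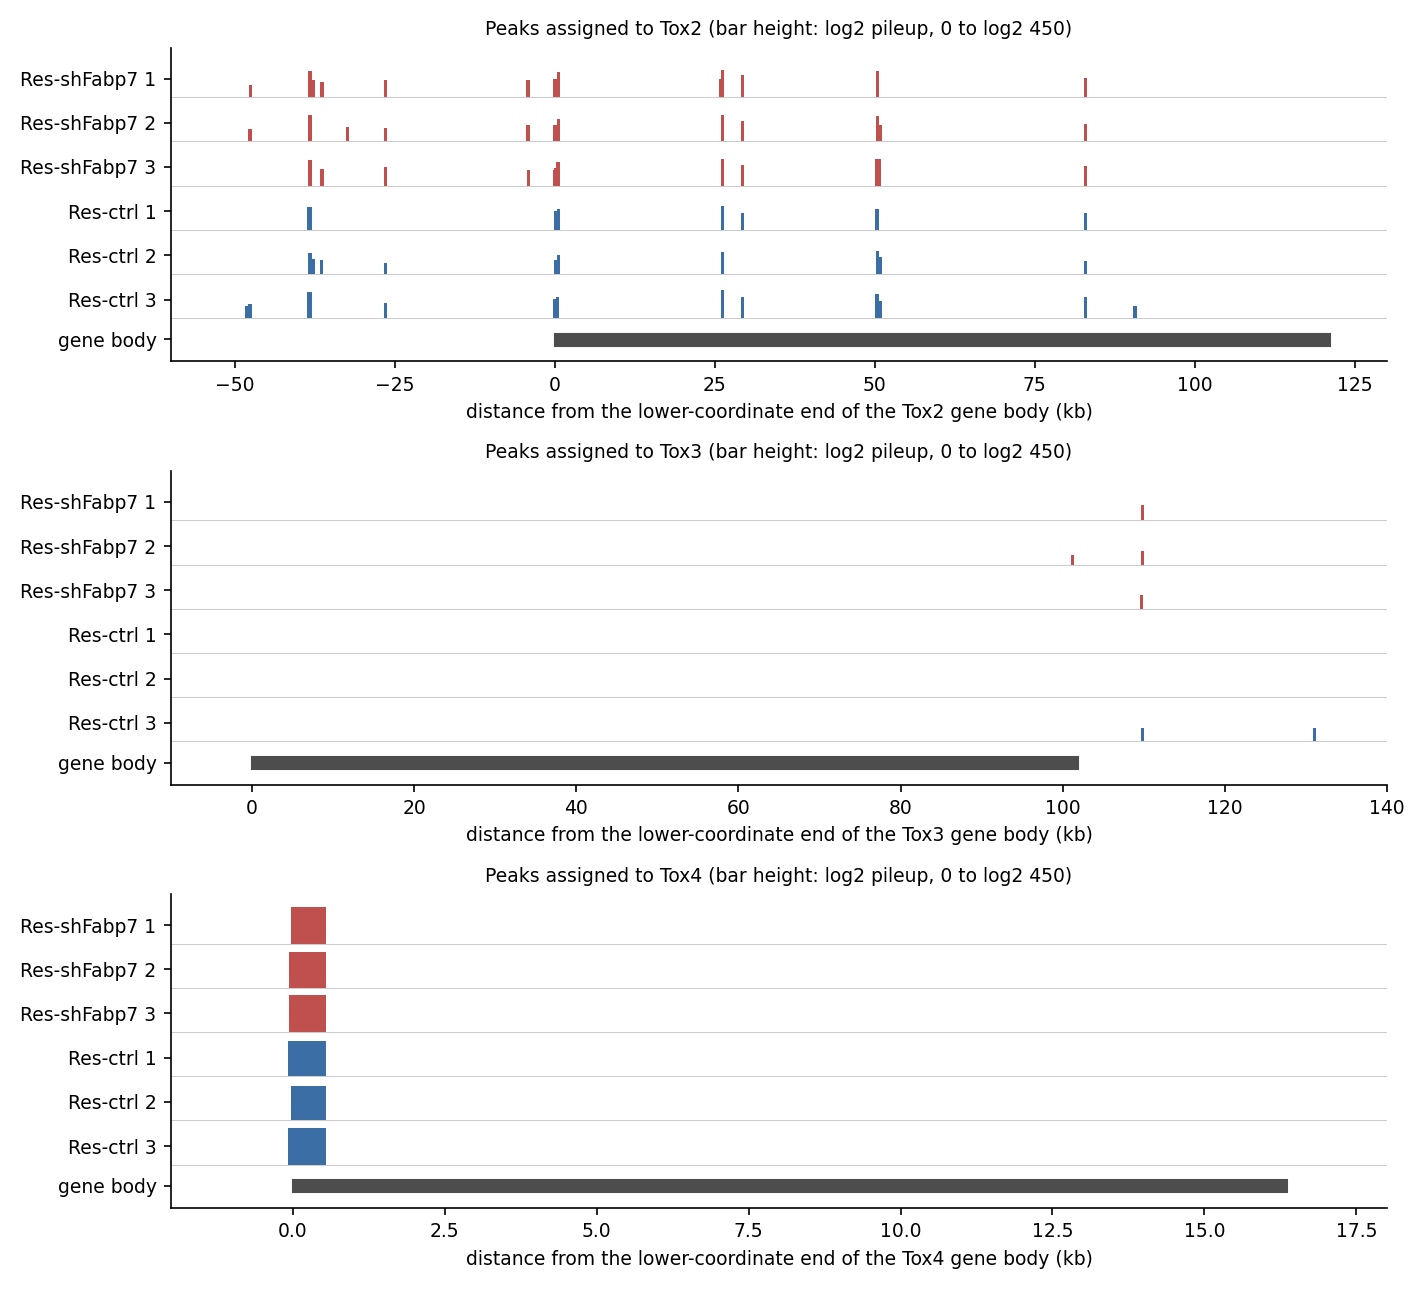
Peaks assigned to Tox2, Tox3 and Tox4 in each library (rows; red, Res-shFabp7; blue, Res-ctrl) against the distance from the lower-coordinate end of each gene body in kb; the bar height is the log2 of the authors' pileup, and bars of Tox2 and Tox3 are drawn wider than the peaks. Tox2 has 5 regions present in all rows, Tox3 has at most 2 peaks in a row, and Tox4 has the same single peak in all 6.

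Per length, the order of the members was Tox, Tox2 or Tox4, then Tox3. Peaks inside the body numbered 15.2 ± 1.49 per 100 kb for Tox (SD over 6 libraries), 6.11 for Tox4, where every library had 1 peak, 5.64 ± 0.622 for Tox2 and 0.164 ± 0.401 for Tox3. The ranges of Tox2 (4.95 to 6.61) and Tox4 overlapped, and those of the other neighbours in this order did not. Among protein-coding genes with a body of like length (at least 0.75 times that of Tox, with a matching upper bound), 475 in number, the median had 2 regions called in all 6 libraries inside it, and 22 had at least the 27 of Tox. The 5 with most were Bach2 with 62, Akap13 with 45, Asap1 with 41, Rere with 40 and Sh3kbp1 with 39. For Tox2 the median of 1397 genes of like length was 3, against its 4. For Tox3, with 0, 23.2% of 1643 genes of like length had 0 as well.

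Counting all regions called in all 6 libraries, 85 of the other 21882 genes had at least the 29 of Tox. By the sum of absolute differences over the 6 peak numbers, the genes most like Tox were Abtb2 (sum 14), Prex1 (16), Itpr2 (17), Ldlrad4 (17) and Hivep2 (18). Abtb2 had 49, 54 and 50 peaks with Res-shFabp7 and 43, 47 and 49 with Res-ctrl. This likeness covers peak numbers over 6 libraries, which share the differences in list length.

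The share of regions called in every library was lower at the larger members than over all regions, a difference that was not tested. It was 38.2% at Tox (29 of 76) and 33.3% at Tox2 (5 of 15), against 42.2% of all merged regions. Regions in a single library made up 30.3% at Tox and 26.7% at Tox2, against 23.3% of all. As over the genome, regions called in all 6 libraries were longer, with a median of 352 bp in the family against 117 bp for its other regions (353 and 132 bp over all regions). The pileup of the family regions held by 1 library was 5 to 30, with a median of 8. The 29 such regions fell as 6, 7 and 3 in Res-shFabp7 replicates 1, 2 and 3 and 3, 6 and 4 in Res-ctrl replicates 1, 2 and 3, where the same counts over all regions were 7683, 8666, 5687, 2685, 1950 and 4582. Res-ctrl replicate 2 held 20.7% of those at the family and 6.24% of those over all regions, a difference that was not tested.

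**Figure D3:**
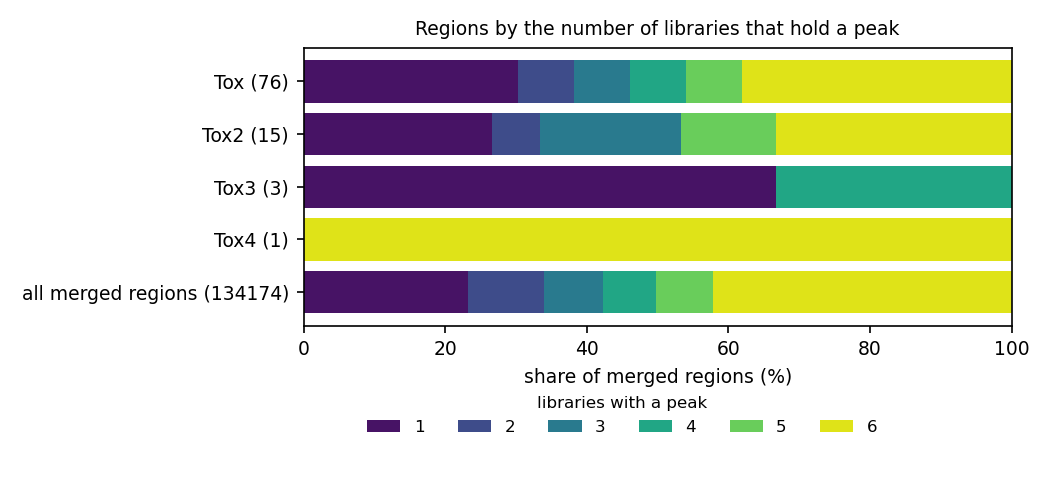
Share of merged regions (x axis, %) by the number of libraries with a peak (colours, 1 to 6) for each gene and for all 134174 merged regions, with the number of regions in parentheses. The yellow part, regions called in all 6 libraries, is 38.2% at Tox, 33.3% at Tox2 and 42.2% over all regions, 0 of 3 at Tox3 and 1 of 1 at Tox4.

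Between the culture conditions, Tox had more called peaks with Res-shFabp7, whose lists were also longer, and per 1000 peaks of the list the groups overlapped. The peak number of Tox was 54.0 ± 2.00 against 45.3 ± 2.52 in Res-ctrl (SD, n = 3 per group), and the groups did not overlap. An exact permutation test, two-sided, gave p = 0.1, which is the lower limit for 3 against 3 libraries. Among 2465 genes with a mean of at least 10 peaks per library, 24.3% had groups that did not overlap with Res-shFabp7 higher and 0.365% had them with Res-shFabp7 lower. Res-ctrl replicate 3, with a background of 1.01, had 45 Tox peaks, within the range of the 2 shallower control libraries. Scaled to 1000 peaks of the library, Tox had 0.497, 0.529 and 0.539 in Res-shFabp7 replicates 1, 2 and 3 and 0.507, 0.584 and 0.467 in those of Res-ctrl. The group means were 0.522 ± 0.0217 and 0.519 ± 0.0595 (SD, n = 3 per group; p = 1 by exact permutation), and on that scale 8.76% of the 2465 genes had groups apart with Res-shFabp7 higher and 14.5% with Res-shFabp7 lower. From the 82153 strongest peaks of each list, Tox had 42, 45 and 43 with Res-shFabp7 and 43, 48 and 36 with Res-ctrl.

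Over all assigned peaks, the groups also overlapped for Tox2 and Tox3. Tox2 had 0.116 ± 0.00758 peaks per 1000 against 0.114 ± 0.0274 in Res-ctrl (SD, n = 3 per group; p = 1 by exact permutation). Tox3 had 0.0128 ± 0.00528 against 0.00692 ± 0.0120 (SD, n = 3 per group; p = 0.6 by exact permutation). For Tox4, with 1 peak in each library, the value per 1000 only restates the list length. Sequence covered by Tox peaks was 12573, 13735 and 11838 bp with Res-shFabp7 and 9420, 9768 and 10655 bp with Res-ctrl. Per Mb of all peak sequence of the library that was 495 ± 33.9 against 464 ± 27.1 bp (SD, n = 3 per group; p = 0.4 by exact permutation), and the groups overlapped.

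**Figure D4:**
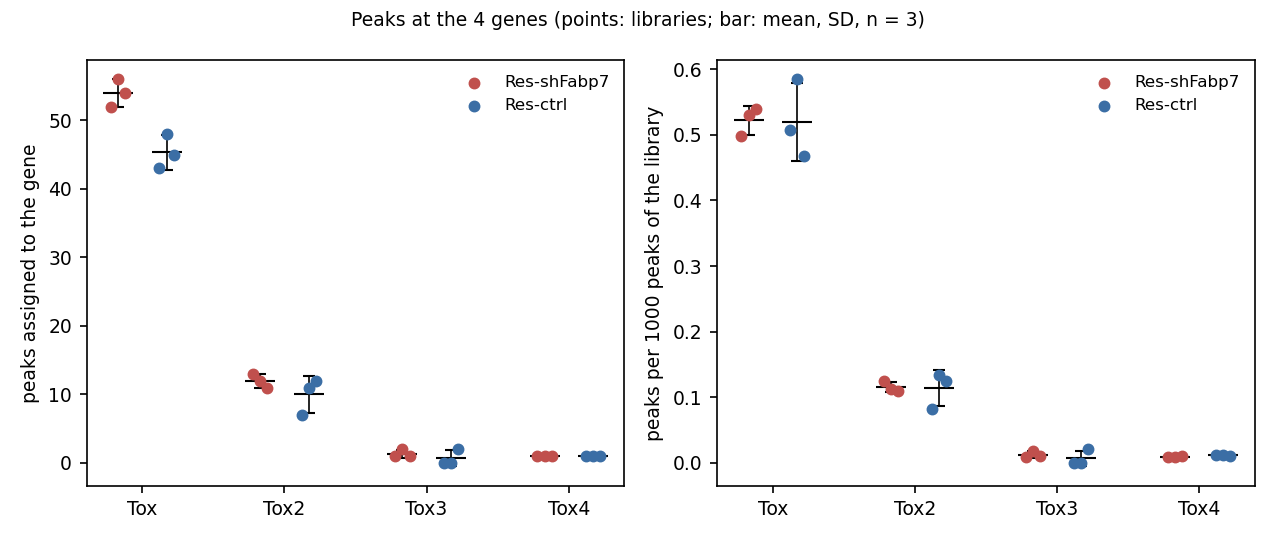
Peaks assigned to each gene (left) and the same per 1000 peaks of the library (right); points are libraries (red, Res-shFabp7; blue, Res-ctrl), and the black bars give mean and SD (n = 3). The Tox points of the groups are apart on the left (52 to 56 against 43 to 48) and overlap on the right.

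Called only with Res-shFabp7, with a peak in 3 of 3 libraries and in 0 of 3 of Res-ctrl, were 3 of the 95 family regions, and 0 were called only with Res-ctrl. Over all merged regions these shares were 2.28% and 0.155%, so that 3 of 95, or 3.16%, was near the background. All 3 were weak, at or below percentile 40.1 of their lists. The Tox region chr4:6675605-6675706, 10.7 kb below the gene, had pileups of 11, 10 and 12 in Res-shFabp7 replicates 1, 2 and 3. It lay 150 bp beside chr4:6675008-6675454, a stronger region called in all 6 libraries with pileups of 49, 40 and 40 with Res-shFabp7 and 31, 21 and 40 with Res-ctrl. The other at Tox, chr4:6882838-6882998, was inside the gene with pileups of 19, 16 and 14. The Tox2 region chr2:163198751-163198935 lay 4215 bp before the gene, with pileups of 16, 15 and 12. The authors' folds over background were 3.96 to 6.16 in these 3 regions.

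Limiting every list to its 82153 strongest peaks left 0 of these 3 specific to Res-shFabp7. Shortening a list only removes peaks, and these regions held no Res-ctrl peak. They were lost because weak Res-shFabp7 peaks were cut, which says nothing about the control libraries there. Another Tox region, chr4:6879613-6879748, became specific, since the peak of Res-ctrl replicate 3 there was among those removed. It was singled out after its values were seen. Of the 50 family regions called in all 3 Res-shFabp7 libraries, 39, 40 and 45 were also called in Res-ctrl replicates 1, 2 and 3. That is 78%, 80% and 90%, against 84.9%, 83.2% and 92.5% of all such regions, so the control library of matching depth shared the most in both. Whether depth set the missing peaks was not tested.

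Peak height was compared over the 56610 regions called in all 6 libraries, 35 of them of the family, as the rank of a region's highest pileup within its library, turned into normal scores. A score of 0 is the middle of the library's regions and 1 unit is 1 SD of the normal scores. Of the 35 family regions 0 passed at an adjusted p under 0.05 (limma with Benjamini-Hochberg adjustment over all 56610, smallest family adjusted p = 0.206), where 0.00177% of all regions passed with Res-shFabp7 higher and 0% with it lower. At an unadjusted limma p under 0.05, 7 of the 35 ranked higher with Res-shFabp7 and 1 lower, or 20% and 2.86%, against 8.27% and 7.40% of all regions. The difference was above 0 in 25 of 35 (71.4%), against 47.8% of all regions, and its median was 0.153, against -0.0105 over all. The 35 regions lie at 3 loci and are not independent, so these counts describe them and carry no test.

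The smallest limma p belonged to chr4:6902180-6902470, inside Tox, with pileups of 44, 37 and 40 with Res-shFabp7 and 22, 18 and 34 with Res-ctrl. Its scores were -0.0570, -0.137 and -0.114 with Res-shFabp7 and -0.367, -0.492 and -0.326 with Res-ctrl, a difference of 0.29 ± 0.0829 (SE; limma adjusted p = 0.206). The Tox2 region 50.5 kb inside the gene described above came next, with a difference of 0.33 ± 0.117 (SE; limma adjusted p = 0.258). The third, chr4:6870583-6870811 in Tox, had pileups of 20, 18 and 21 with Res-shFabp7 and 11, 10 and 12 with Res-ctrl, and a difference of 0.44 ± 0.160 (SE; limma adjusted p = 0.274). For Tox4 the difference was 0.088 with a 95% confidence interval from -0.141 to 0.317, and for the region at the higher-coordinate end of Tox -0.137 with an interval from -0.331 to 0.0572. Adjacent regions did not always go the same way: of 3 neighbouring regions inside Tox, chr4:6934503-6934735 had a difference of -0.372, while those 107 and 111 bp to its sides had 0.108 and 0.332.

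**Figure D5:**
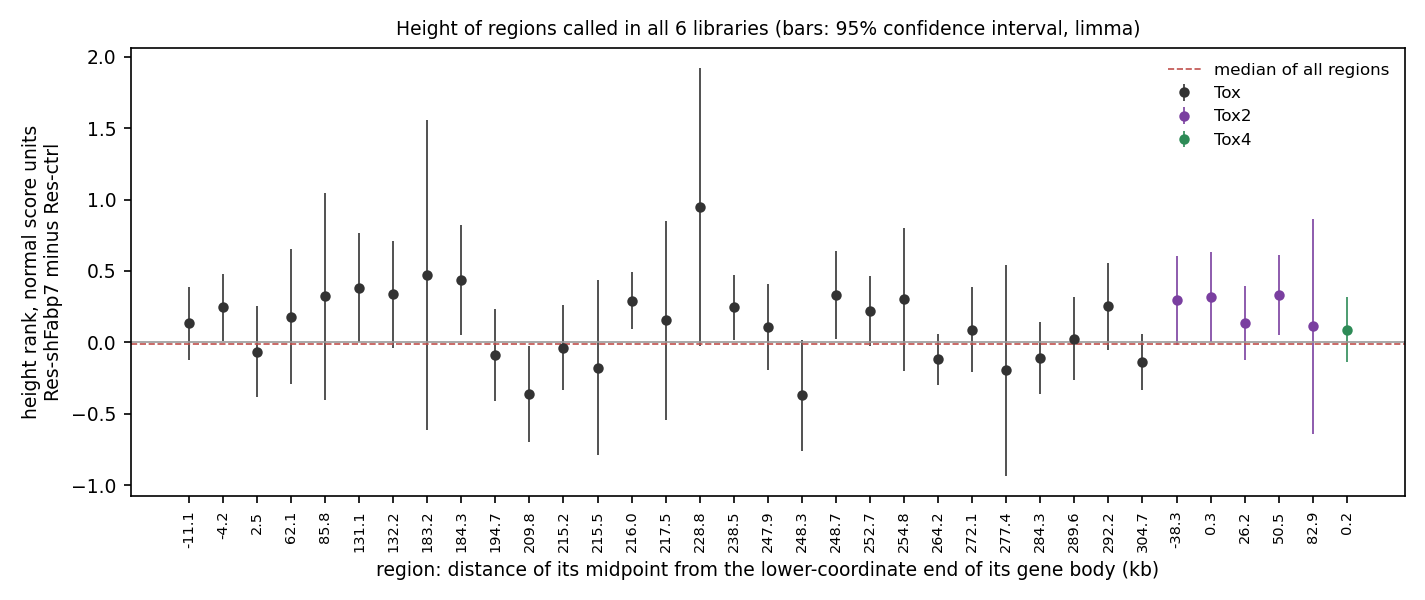
Difference in height rank (normal score units, Res-shFabp7 minus Res-ctrl) of the 35 family regions called in all 6 libraries, ordered along each gene by the distance of the midpoint from the lower-coordinate end of the body in kb; bars are 95% confidence intervals from limma, and the dashed line is the median of all 56610 regions. Points lie above 0 in 25 of 35, and 0 pass after adjustment.

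Genes that act with or around the family were read from lists chosen with earlier results of these data known. The exhaustion programme, a list of 27 genes, joins inhibitory receptors with other surface proteins and factors of exhausted, stem-like and effector T cells. All 27 had a region called in all 6 libraries, against 64.3% of all protein-coding genes. Tcf7, a factor of stem-like T cells, had 20 of these, Ctla4 19, Nfatc1 26, Nfatc2 25, Pdcd1, which encodes PD-1, 8 and Havcr2, an inhibitory receptor, 5. The fewest were 1 at Klrg1 and 3 each at Cd244a, Cd160 and Cd38. Group-specific regions numbered 5 for Res-shFabp7 and 3 for Res-ctrl among the 765 regions of this list, or 0.654% and 0.392%, against the 2.28% and 0.155% of all regions. Leaving out 1 library gave 6 to 31 for Res-shFabp7 (31 without Res-ctrl replicate 3, and 11, 19 and 20 without Res-shFabp7 replicates 1, 2 and 3). It gave 3 to 8 for Res-ctrl (8 without Res-ctrl replicate 2). Over all regions the share for Res-shFabp7 was 5.18% without Res-ctrl replicate 3, and 3.74%, 3.85% and 4.27% without Res-shFabp7 replicates 1, 2 and 3. For Res-ctrl the share over all regions was 0.561% without Res-ctrl replicate 2. Of the 5 specific to Res-shFabp7 over all 6 libraries, 2 were inside Bach2, a repressor that restrains effector differentiation, and 1 was inside Ikzf2. The others were 1 each near Prdm1, the gene of Blimp-1, and near Irf4, a factor downstream of the T cell receptor. Those called only with Res-ctrl were inside Irf4, inside Cx3cr1, a chemokine receptor, and near Nfatc1.

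The HBO1 complex, a histone acetyltransferase that Tox is known to bind, had a region called in all 6 libraries at 10 of 10 genes, against 64.3% of all genes. Of its 76 regions 2 were called only with Res-shFabp7, at Meaf6 and Jade2, both parts of the complex, and 0 only with Res-ctrl. The phosphatase complex that holds Tox4 had such a shared region at 5 of 5 genes, with the same share of 64.3% over all genes. Of its 49 regions 1 was called only with Res-shFabp7, 2218 bp outside Ppp1r10, its scaffold, and 0 only with Res-ctrl. The share was 2.63% at the first complex and 2.04% at the second, against 2.28% of all regions. These rest on 2 and 1 regions. With 1 library left out the counts for Res-shFabp7 were 2 to 5 at the first complex (5 without Res-ctrl replicate 3, 4 without Res-shFabp7 replicate 2). At the second they were 1 to 2 (2 without Res-ctrl replicate 3 or Res-shFabp7 replicate 1 or 2). The share over all regions was 5.18% without Res-ctrl replicate 3, and 3.74% and 3.85% without Res-shFabp7 replicates 1 and 2.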

How the data were processed

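ATAC-seq peaks of 6 libraries were used, 3 per group. The submitters' processing notes name MACS2 2.2.7.1, Bowtie 1.1.2, Trim Galore 0.6.5 and cutadapt 2.8, with the build mm10. The sources used here do not say how duplicates and the transposase offset were handled. The authors deposited 1 list per library, with the −log10 p-value and q-value of each peak, its pileup (a coverage signal) and its fold, a ratio of summit to local background. Starts and summits appeared to count from 0 and are given counted from 1. The background of a list is the most frequent value of (pileup + 1)/fold − 1. Per the labels each library had 35000000 to 75000000 read pairs, with no value for single libraries.

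Each summit was assigned to the nearest of 21883 protein-coding RefSeq gene bodies (GRCm38.p6) within 100 kb; 0 member summits were tied. Merged regions were assigned by their midpoint, except that family regions are those holding a member's peak. Peak numbers per 1000 peaks were compared by two-sided exact permutation, which cannot go below 0.1 for 3 against 3. Heights were fitted with limma 3.58.1 in R 4.3.3. The fit was also run on simulated heights. Their spread was set rather than taken from these libraries, so that run gives no measure of power here. The text names the members, their promoter, strongest and group-specific regions, the 3 regions with the smallest height p, and list genes with a group-specific region, with up to 4 per list and direction. Shared regions at Tcf7, Ctla4, Nfatc2, Pdcd1 and Havcr2, and the lowest at Klrg1, Cd244a, Cd160 and Cd38, were named as examples after their values were seen. The members and lists were chosen with earlier results of these data known. Alternatives were other q thresholds, list lengths, merging, distances, height scales, leaving out each library, and a replicate block.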

Additional observations from a re-analysis of the deposited data

How the results depend on the processing

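The difference in Tox peaks per 1000, Res-shFabp7 minus Res-ctrl, was 0.00231 and changed sign within 20 kb (-0.000108); leaving out 1 library gave -0.0238 (without Res-ctrl replicate 3) to 0.0347 (without Res-ctrl replicate 2). For Tox2 it was 0.00216, -0.00236 within 20 kb and -0.0153 inside the body only. Inside the body p was 0.1 by exact permutation, its lower limit, and the groups were apart with Res-shFabp7 lower. The raw numbers there overlapped (7, 7 and 6 with Res-shFabp7, 6, 7 and 8 with Res-ctrl). With all assigned peaks, 14.5% of 2465 genes were apart in that direction, and the share inside bodies was not counted. Leaving out 1 library gave -0.0134 to 0.0123 (without Res-ctrl replicates 1 and 2). Against Res-ctrl replicate 3 alone, an alternative chosen after seeing the data, the difference was -0.00877. For Tox3 it was 0.00589, and -0.00795 against that library alone, with 0.00243 (without Res-ctrl replicate 1 or 2) to 0.0128 (without Res-ctrl replicate 3) when 1 library was left out. At these numbers of libraries no exact permutation p can fall below 0.1, so the tests say nothing about stability. The 3 family regions called only with Res-shFabp7 (3.16%, against 2.28% of all regions) became 1 with equal numbers of peaks (1.3% of its regions, against 1.11%), 5 when a library needed peaks over 50% of a region (5.26% against 2.82%) and 7 with 2 of 3 libraries required (7.37% against 7.28%). Leaving out 1 library gave 3 to 6: 6 without Res-ctrl replicate 3 (6.32% against 5.18%), and 5 without Res-ctrl replicate 2 (5.26% against 2.90%) or Res-shFabp7 replicate 1 (5.26% against 3.74%). Against Res-ctrl replicate 3 alone 5 were called only with Res-shFabp7 (5.26% against 4.13%) and 4 only with that control (4.21% against 4.33%). In the other 13 settings 0 were called only with Res-ctrl. The count of family regions past the height test was 0 in each of the 11 alternatives run for it, and their smallest adjusted p ranged from 0.129 to 0.355 (limma). The deviations of same-numbered libraries of the groups correlated at -0.0400, 0.0240 and -0.0204, and those of differently numbered ones at -0.0510 to 0.0718. With 3 libraries per group these values neither show nor exclude a pairing by number. With a replicate block the mean differences per 1000 peaks were 0.00231, 0.00216, 0.00589 and -0.00178 for Tox, Tox2, Tox3 and Tox4, equal by construction to those without it. The exact sign-flip permutation p became 0.75 for Tox3 and 0.25, the smallest possible, for Tox4. With that block 0 family regions passed the height test. Over the alternatives, the counts specific to Res-shFabp7, then to Res-ctrl, ranged from 4 to 40 and 1 to 28 for the exhaustion list. They ranged from 1 to 5 and 0 to 3 for the HBO1 complex, and 0 to 3 and 0 to 3 for the phosphatase complex. Over all regions the shares ranged from 1.11% to 7.28% and from 0.104% to 4.33%. The 40 came with 2 of 3 libraries required, where the share over all regions was 7.28%. The 28 came against Res-ctrl replicate 3 alone, the alternative chosen after seeing the data, where that share was 4.33%. The deposited lists hold no coverage outside peaks, which limits every statement on a missing peak to the call.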
